A study of Saccharomyces cerevisiae with 10 samples.

Results

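Glycolysis, fermentation and gluconeogenesis are described here through 35 yeast genes, taken by name from the 7252 features of the count table. They cover glucose phosphorylation (HXK1, HXK2, GLK1), upper glycolysis (PGI1, PFK1, PFK2, FBA1, TPI1), lower glycolysis (TDH1, TDH2, TDH3, PGK1, GPM1, ENO1, ENO2, CDC19, PYK2), fermentation to ethanol (PDC1, PDC5, PDC6, ADH1, ADH2, ADH3, ADH4, ADH5), acetate and acetyl-CoA (ALD4, ALD6, ACS1, ACS2), gluconeogenesis (FBP1, PCK1, PYC1, PYC2) and glycerol (GPD1, GPD2). All 35 were measured, with at least 445 counts in every library, and all 35 passed the filter on low counts. The libraries came from sorted low and high fractions of one culture type, named low and high after the fluorescence of a GFP placed under the promoter of the ribosomal protein gene RPL28. Both fractions carried the same genotype, a MATa BY4741 background made prototrophic and bearing the pRPL28 GFP marker. Both had grown for 4 h in rich medium (YPD) and then for 1 h in nitrogen-limited medium with 0.8 mM proline (NLIM-PRO), which still holds glucose. For sorting, both were moved from this medium into phosphate-buffered saline and kept cold there until sorted and frozen. What this hold did to the levels below was not tested. Cells were gated on GFP and side scatter, with doublets and budding cells removed, so the GFP signal that defined the groups is no outcome here. Of 5 low and 5 high libraries, the study compared 3 low (L1_2609, L2_2709 and L_2909) with 5 high libraries, leaving out L2_2609 and L1_2709. The same 8 libraries are compared here, and all 10 are described.

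In budding yeast, glucose is phosphorylated, split and oxidised to pyruvate by glycolysis, and most pyruvate is decarboxylated and reduced to ethanol even when oxygen is present. Many steps have paralogous isoenzymes of which one serves growth on glucose, while another is kept low by glucose repression and appears when glucose runs short or growth slows. Gluconeogenesis runs the path in reverse through FBP1 and PCK1, both classic targets of glucose repression.

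Library totals were 18977794 to 23644299 counts in the 3 low libraries compared, 15879779 to 23644299 in all 5 low libraries and 22167864 to 27752702 in the 5 high libraries. Low libraries had 983 to 1552 features at 0 counts and 28 to 47 features with 1 to 9 counts, against 383 to 511 and 275 to 345 in high, so scarce transcripts were sampled less finely in low than the totals alone show. The fractions differed in cell cycle markers. The summed level of 8 M-phase genes (CLB1, CLB2, CDC5, CHS2, HOF1, BUD4, DBF2, SPO12) was 63.7 to 97.0 CPM per kilobase in the 3 low libraries, 63.7 to 139 in all 5 low libraries and 600 to 890 in high. Of the 8 genes, 8 were called lower in low, against 4.33% of all genes tested. Of these, CLB2 alone was at 0, in L2_2709 and the left-out L2_2609. The 6 daughter cell genes (DSE1, DSE2, CTS1, DSE4, SCW11, ASH1) summed to 1307 to 1749 in the 3 low libraries, 950 to 1749 in all 5 low libraries and 330 to 512 in high. CTS1 was the largest part, at 783 to 993 in the 3 low libraries. DSE1, DSE2 and CTS1, 3 of the 6, were called higher, against 0.832% of all genes tested. The rest were not called, with log2 fold changes of 0.60 for SCW11, -0.12 for DSE4 and -0.31 for ASH1. From these libraries the study had already reported CDC5, CHS2, HOF1, BUD4, DBF2 and SPO12 as higher in high. It had also reported DSE1 and DSE2 as higher in low, so the calls of these genes are no independent evidence of cell cycle stage. The left-out L1_2709 had the highest M-phase and the lowest daughter cell sum of the low libraries. MATa genes (STE2, MFA1, MFA2, BAR1) summed to 4504 to 7800 in the 3 low, 2556 to 8187 in all 5 low and 1208 to 5616 in high libraries, and MATalpha genes (STE3, MFALPHA1, MFALPHA2) to 26.2 to 39.5 in the 3 low, 25.6 to 46.2 in all 5 low and 26.9 to 36.2 in high, with STE3 or MFALPHA1 at 0 in L2_2709, L_2909 and L1_2709. In bulk libraries, fewer cells of a type and less RNA per cell cannot be told apart, and the part of cell cycle stage and cell age in the values below was not tested.

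The 35 genes took 6.59% ± 1.05 of all counts in the 3 low libraries and 6.91% ± 1.10 in the 5 high libraries (SD). Levels are given as CPM per kilobase, which is the read count scaled to library size with TMM factors and divided by coding length in kilobases, and can be compared between genes. They spanned more than 2 orders of magnitude, as the plot of levels by library shows. TDH3, the main glyceraldehyde-3-phosphate dehydrogenase, was the most abundant of the 35, at rank 6 of all features in low and rank 7 in high. It measured 8049 ± 2187 in low and 9131 ± 2414 in high (SD, n = 3 and 5). HXK1, the hexokinase repressed by glucose, came next at rank 9 in both fractions. PDC5, at 48.9 ± 9.28 in low and 54.8 ± 18.1 in high, and ADH4, at 51.2 ± 2.65 in low and 51.7 ± 6.81 in high, were the scarcest, with each gene's spread as SD over the same 3 low and 5 high libraries.

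**Figure D1:**
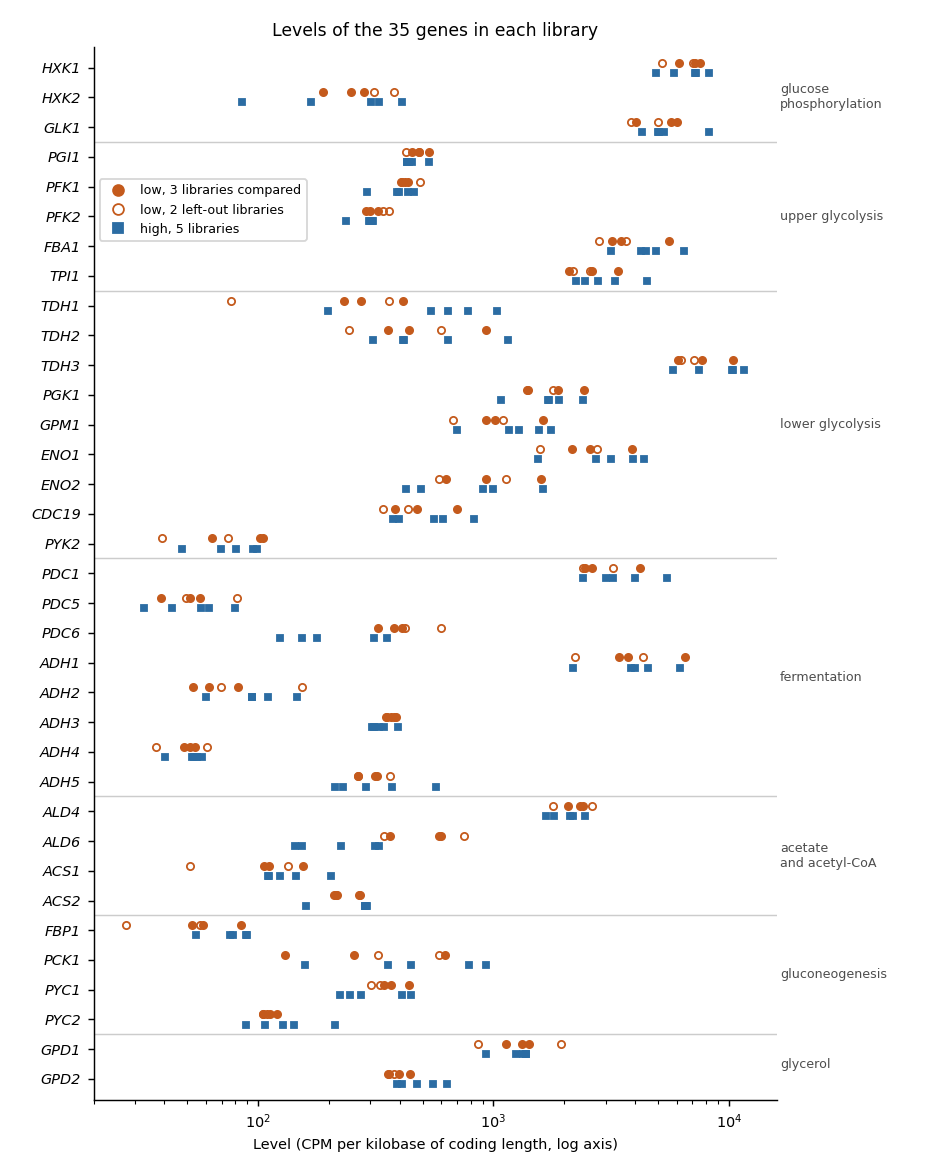
Levels of the 35 genes in CPM per kilobase (log axis), grouped by role from glucose phosphorylation at the top to glycerol at the bottom. Filled circles are the 3 low libraries compared, open circles the 2 left-out low libraries and squares the 5 high libraries, with low above high for each gene. The fractions overlap for every gene but ALD6, where the lowest low library was at 344 and the highest high library at 327.

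Among transcripts of the 3 hexose kinase genes, those of the repressible HXK1 and GLK1 made up almost the whole. EMI2, from the neighbouring enzymes below, is not counted among them. It measured 987 ± 132 CPM per kilobase in low and 1131 ± 219 in high (SD, n = 3 and 5). HXK1 measured 7176, 7532 and 6127 CPM per kilobase in the 3 low libraries, 5192 and 7054 in the left-out low libraries, and 8223, 4893, 7250, 7179 and 5868 in high. GLK1, the glucokinase, measured 5995, 5682 and 4026 in the 3 low libraries, 3847 and 5004 in the left-out ones, and 8216, 4271, 5313, 5066 and 5010 in high. HXK2, the hexokinase that predominates during growth on glucose and takes part in glucose repression, measured 190, 249 and 282 in the 3 low libraries, 310 and 377 in the left-out ones, and 85.3, 410, 325, 302 and 168 in high. Thus the lowest GLK1 or HXK1 value of any library, 3847, stood above the highest HXK2 value, 410, and HXK2 ranked 816 in low and 749 in high. HXK1 made up 56.1% ± 2.51 of the 3 kinases in low and 53.5% ± 3.21 in high, GLK1 41.9% ± 3.16 in low and 44.3% ± 3.72 in high, and HXK2 1.99% ± 0.654 in low and 2.25% ± 1.40 in high (SD, n = 3 and 5). Neither the HXK1 share (exact permutation test over libraries, two-sided, p = 0.286) nor the GLK1 share (exact p = 0.429) differed between the fractions beyond the spread. HXK1 and GLK1 together stood at 36.0 to 69.5 times HXK2 in the 3 low libraries, 29.2 and 32.0 times in the left-out ones and 22.3 to 193 times in high.

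The stretches before these genes are shown because the 3 kinases differed so widely in level. Each is the 300 bases from 500 to 201 before the start codon in the R64 assembly of RefSeq, whose coordinates match those of the files for all 35 genes, read 5′ to 3′ on the gene's strand. Capitals mark the stress response element AGGGG and the words known for the repressor Mig1, on either strand. These words are CCGGGG as well as CTGGGG, and further GCGGGG besides GTGGGG. HXK1 has 3 stress elements and 2 Mig1 words in this window (chrVI:255250-255549, minus strand), GLK1 has 0 and 1 (chrIII:50338-50637, plus strand), and HXK2 has 0 of both (chrVII:23435-23734, plus strand).
HXK1 upstream window: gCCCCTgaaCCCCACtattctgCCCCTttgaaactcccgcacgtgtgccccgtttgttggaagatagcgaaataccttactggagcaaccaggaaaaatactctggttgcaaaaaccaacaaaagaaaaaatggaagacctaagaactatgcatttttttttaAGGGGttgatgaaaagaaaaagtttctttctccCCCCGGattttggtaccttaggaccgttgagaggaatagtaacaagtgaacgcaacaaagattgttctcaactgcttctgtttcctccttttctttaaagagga
GLK1 upstream window: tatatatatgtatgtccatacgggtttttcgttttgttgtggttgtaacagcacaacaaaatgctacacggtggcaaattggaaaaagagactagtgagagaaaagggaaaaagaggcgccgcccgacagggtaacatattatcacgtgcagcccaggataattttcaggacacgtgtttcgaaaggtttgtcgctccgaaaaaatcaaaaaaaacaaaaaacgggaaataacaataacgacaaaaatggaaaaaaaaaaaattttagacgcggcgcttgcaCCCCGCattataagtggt
HXK2 upstream window: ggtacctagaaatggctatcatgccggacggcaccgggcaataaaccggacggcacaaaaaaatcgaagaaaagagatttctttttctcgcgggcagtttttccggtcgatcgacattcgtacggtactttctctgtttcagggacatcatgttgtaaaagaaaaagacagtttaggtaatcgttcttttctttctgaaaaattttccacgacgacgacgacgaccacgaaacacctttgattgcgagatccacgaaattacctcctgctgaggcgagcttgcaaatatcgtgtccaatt

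Over the same window, AGGGG was found in 15 of the 35 genes (42.9%), against 22.2% of 6659 protein-coding genes, and a Mig1 word in 12 of 35 (34.3%), against 16.7%. By group, a Mig1 word stood before 6 of the 9 members known to be repressed by glucose (HXK1, GLK1, TDH1, PYK2, ADH2, ALD4, ACS1, FBP1, PCK1) and before 0 of the 15 main genes of glycolysis and ethanol formation on glucose (HXK2, PGI1, PFK1, PFK2, FBA1, TPI1, TDH2, TDH3, PGK1, GPM1, ENO1, ENO2, CDC19, PDC1, ADH1). This grouping is by known role and not by level, as HXK1, GLK1 and ALD4 of the 9 were more abundant here than HXK2, PFK1 and PFK2 of the 15. The carbon source response element, CCNNNNNNCCG on either strand, which can overlap the other words, stood before 5 of the 9 and 1 of the 15, against 15.2% of all protein-coding genes. CTTCC, the core bound by the glycolytic activator Gcr1, stood before 6 of the 9 and 10 of the 15, against 49.1%. A match describes letters only, and sites outside the window were not searched.

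In upper glycolysis, PGI1, PFK1 and PFK2 varied little between libraries, and FBA1 and TPI1 varied more. PGI1, phosphoglucose isomerase, measured 490 ± 40.8 CPM per kilobase in low and 456 ± 43.1 in high (SD, n = 3 and 5). The subunits of phosphofructokinase, PFK1 and PFK2, stood at 416 ± 15.1 and 303 ± 18.5 in low, against 394 ± 64.8 and 289 ± 30.2 in high, so that PFK1 gave 57.9% ± 2.25 of the pair in low and 57.5% ± 1.89 in high (exact permutation p = 0.821). FBA1, the aldolase, and TPI1, triose phosphate isomerase, were far more abundant, at 4077 ± 1283 and 2698 ± 647 in low and 4645 ± 1196 and 3049 ± 898 in high. All 5 differences had 95% intervals inside a 2-fold change either way.

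In lower glycolysis, the same isoenzyme led each step in both fractions. TDH3 gave 90.4% ± 1.95 of glyceraldehyde-3-phosphate dehydrogenase transcripts in low and 88.5% ± 2.36 in high, TDH2 6.22% ± 1.83 in low and 5.61% ± 2.32 in high, and TDH1 3.42% ± 0.117 in low and 5.94% ± 2.09 in high (SD, n = 3 and 5). Over all 5 low libraries the TDH1 share was 3.18% ± 1.21 (SD), from 1.16% to 4.45%, and the high library H2_2609 was at 3.16%. The exact permutation p in the 8 libraries was 0.143 for the TDH1 share and 0.786 for the TDH2 share. ENO1, the enolase that depends less on glucose than ENO2, gave 73.7% ± 5.83 in low and 77.8% ± 7.91 in high (exact permutation p = 0.571), reaching 91.1% in the high library H1_2609. CDC19, the main pyruvate kinase, gave 84.9% ± 2.80 in low and 87.0% ± 4.52 in high, and its glucose-repressed paralogue PYK2 the rest (exact permutation p = 0.536). PGK1, phosphoglycerate kinase, measured 1900 ± 527 CPM per kilobase in low and 1766 ± 479 in high, and GPM1, phosphoglycerate mutase, measured 1187 ± 379 in low and 1294 ± 406 in high.

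How far paralogues share reads sets how finely these shares can be read. The stretch of the TDH coding sequences in which TDH2 and TDH3 differ most is shown, bases 34 to 123 counted from the A of the start codon, with capitals at every base where the 3 genes are not all alike. It lies at chrX:338304-338393 (plus strand) in TDH1, at chrX:454559-454648 (minus strand) in TDH2 and at chrVII:883688-883777 (minus strand) in TDH3. In these 90 bases TDH1 differs from TDH3 at 20 positions and TDH2 from TDH3 at 13.
TDH1 coding stretch: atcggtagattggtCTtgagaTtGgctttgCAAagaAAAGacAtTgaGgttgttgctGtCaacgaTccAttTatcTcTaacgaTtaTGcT
TDH2 coding stretch: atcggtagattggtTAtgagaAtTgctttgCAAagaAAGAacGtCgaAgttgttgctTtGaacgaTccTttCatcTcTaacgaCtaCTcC
TDH3 coding stretch: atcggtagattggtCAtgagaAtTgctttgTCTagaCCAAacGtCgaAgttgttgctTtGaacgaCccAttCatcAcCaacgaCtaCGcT

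Over the whole coding sequence TDH2 and TDH3 were identical at 95.8% of bases, TDH1 and TDH3 at 88.9%, ENO1 and ENO2 at 94.8%, ADH1 and ADH2 at 88.8%, PDC1 and PDC5 at 87.2% and PYC1 and PYC2 at 85.5%. Windows of 150 bases, the length of a single read, occurred more than once in the genome for 2.82% of TDH2 and of TDH3, 4.45% of ADH1 and of ADH2, 1.51% of PYC1 and 1.5% of PYC2, and for 0% of the other 29 genes, TDH1, ENO1, ENO2, PDC1 and ALD6 among them. Values of TDH2 beside TDH3 and of ADH2 beside ADH1 are therefore the least certain, since the scarcer gene of each pair could gain reads from the other. PGK1, GPM1, CDC19 and GPD1 each overlap an open reading frame annotated on the opposite strand, and HXK1 and GLK1 one on the same strand, and whether counting used strand is not given in the sources used here.

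For ethanol formation, PDC1 and ADH1 led. PDC1, the main pyruvate decarboxylase, gave 87.5% ± 3.41 of its step in low and 92.8% ± 1.83 in high (SD, n = 3 and 5). PDC6, a minor isoenzyme known from sulfur limitation and non-fermentable carbon, gave 11.0% ± 2.96 in low and 5.66% ± 1.56 in high. PDC5, known to be induced when PDC1 is lost, gave 1.5% ± 0.572 in low and 1.53% ± 0.848 in high. The PDC1 share was 87.3%, 90.9% and 84.1% in the 3 low libraries, 82.8% and 83.2% in the left-out low libraries, and 95.1%, 91.2%, 90.7%, 93.6% and 93.5% in high, with L2_2709 above the lowest high library by a small margin. Its difference of -5.35 percentage points had an exact permutation p of 0.0714 in the 8 libraries, where the smallest possible p is 0.0357, and with all 10 libraries it was -7.13 points, with an exact p of 0.0159. ADH1 gave 84.4% ± 3.95 of the 5 alcohol dehydrogenases in low and 82.3% ± 5.45 in high. Mitochondrial ADH3 gave 7.30% ± 1.75 in low and 7.27% ± 2.27 in high, and ADH5 5.94% ± 1.53 in low and 6.92% ± 2.80 in high. The ethanol-oxidising and glucose-repressed ADH2 gave 1.33% ± 0.565 in low and 2.34% ± 1.57 in high, and ADH4 1.01% ± 0.249 in low and 1.14% ± 0.467 in high. The ADH1 share (exact permutation p = 0.607) and the ADH4 share (exact p = 0.821) did not differ beyond the spread.

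At the acetaldehyde dehydrogenases, mitochondrial ALD4 led cytosolic ALD6, which makes acetate for acetyl-CoA and yields NADPH. Of this pair, ALD4 gave 81.4% ± 4.55 in low and 89.7% ± 3.72 in high, and ALD6 18.6% ± 4.55 in low and 10.3% ± 3.72 in high (SD, n = 3 and 5). The pair leaves out other aldehyde dehydrogenases, of which ALD3 measured 1186 ± 238 CPM per kilobase in low and 1352 ± 368 in high. That was above ALD6, at 517 ± 132 in low and 233 ± 86.2 in high, so these are not shares of all such transcripts. The difference of -8.28 points in the ALD4 share had an exact permutation p of 0.0714 in the 8 libraries, and in all 10 it was -8.53 points with an exact p of 0.0159. ACS2, the acetyl-CoA synthetase used on glucose, measured 232 ± 33.0 CPM per kilobase in low and 261 ± 56.3 in high, and ACS1, its glucose-repressed paralogue, 124 ± 26.8 in low and 138 ± 38.9 in high. PYC1 gave 77.2% ± 2.18 of pyruvate carboxylase transcripts in low and 70.1% ± 4.89 in high, with an exact permutation p of 0.107 in the 8 libraries and 0.0397 in all 10. GPD1, the glycerol-3-phosphate dehydrogenase of osmotic stress, gave 76.3% ± 3.72 in low and 71.9% ± 3.19 in high beside GPD2, the isoenzyme of anaerobic redox balance (exact permutation p = 0.107). Of the 14 shares tested, 0 had a p under 0.05 in the 8 libraries and 4 did in all 10 (TDH1, PDC1, ALD4 and PYC1), with a smallest Benjamini-Hochberg value over the 14 shares of 0.375 and 0.111. The 2 added libraries are those the study left out, and the p-values under 0.05 in 10 libraries are unadjusted, so no share was called. With 10 libraries the smallest possible exact permutation p was 0.00794, against 0.0357 with 8.

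**Figure D2:**
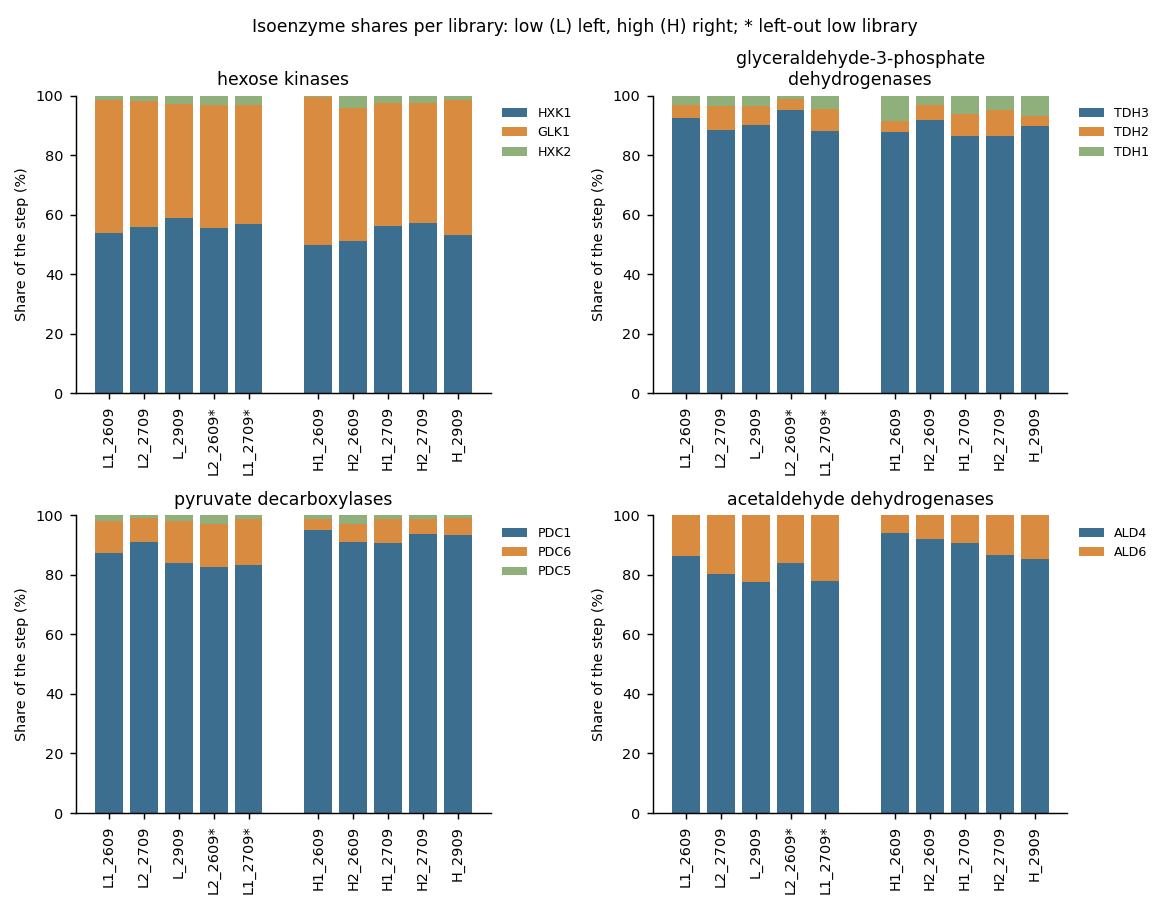
Share of each isoenzyme among the genes shown for its step (%, from counts per kilobase) in each library. Other genes, such as ALD3, are not counted. The low libraries are on the left, the 2 left-out ones starred, and the 5 high libraries on the right. HXK2 is a thin band in every library, TDH3 dominates its step, and the bands of PDC6 and ALD6 are wider in low, on average 11.0% and 18.6%, than in high, on average 5.66% and 10.3%.

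Low and high were then compared gene by gene. With edgeR's quasi-likelihood test and Benjamini-Hochberg adjustment over all 6492 genes tested, 0 of 35 members had an adjusted p under 0.05, here termed called, against 335 genes (5.16%) in the whole table, 54 higher (0.832%) and 281 lower (4.33%) in low. An unadjusted p under 0.05 was found for 4 of the 35 (ALD6, TDH1, ADH2 and PDC6) and for 1143 of the 6492. With all 10 libraries 1 member was called, ALD6, against 3.55% of all genes, and with DESeq2 on the 8 libraries again ALD6 alone, against 9.88%. The median log2 fold change of low over high was -0.09 for the 35 genes, with 14 positive and 21 negative, and -0.02 for all genes tested. For 27 of the 35 the 95% interval of the fold change lay inside a 2-fold change either way, so that for them a larger difference lay outside the interval. The 8 with wider intervals were HXK2, TDH1, TDH2, ENO2, PDC6, ADH2, ALD6 and PCK1.

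**Figure D3:**
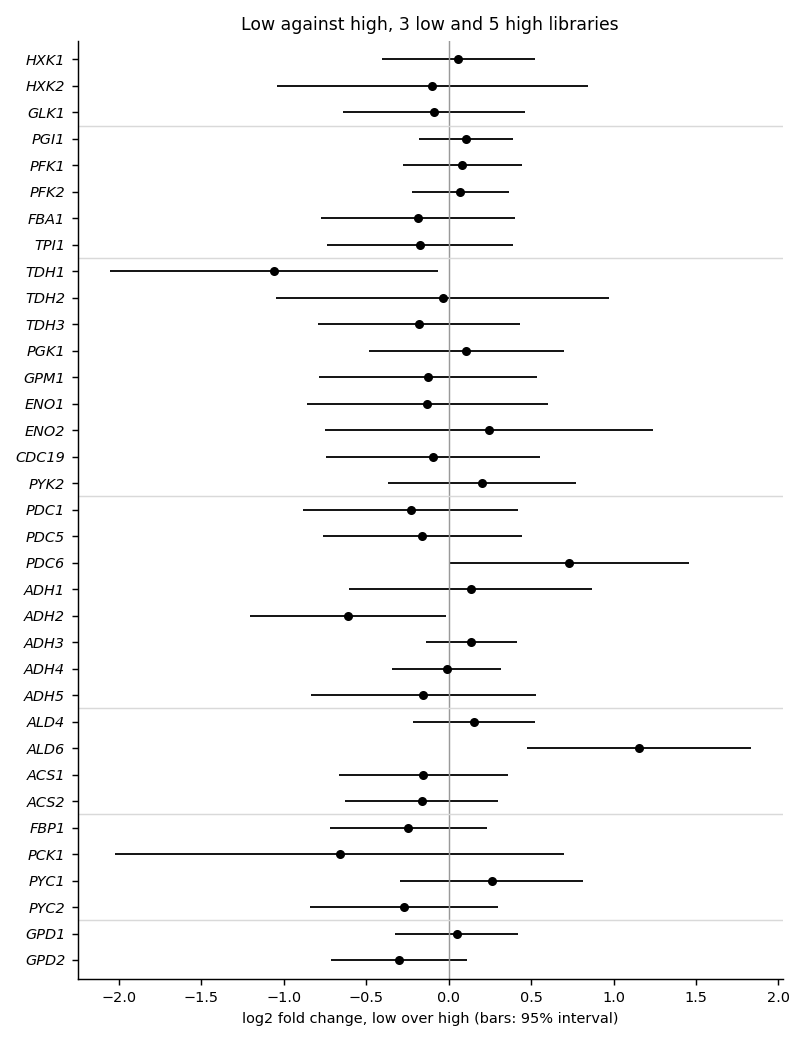
Log2 fold change of low over high for the 35 genes (points) with the 95% interval of the edgeR fit to 3 low and 5 high libraries (bars), in pathway order. Most points lie near 0, while ALD6 stands at 1.15 and TDH1 at -1.06.

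In the 8 libraries ALD6 had the largest log2 fold change of the 35 in size, while with all 10 libraries TDH1 did, at -1.24. ALD6 measured 364, 588 and 598 CPM per kilobase in the 3 low libraries and 344 and 749 in the left-out low libraries, against 154, 143, 226, 327 and 314 in high. Every low library stood above every high one, with 344 and 327 as the nearest values. Of all genes tested, 4.78% were so ordered in the 8 libraries and 1.8% in all 10, and 10.7% and 6.15% had every low library below every high one, which none of the 35 did. The fitted log2 fold change of ALD6 was 1.15 ± 0.30 (SE), a 2.23-fold higher level in low, with an adjusted p of 0.0612. It was 1.18 with all 10 libraries (adjusted p 0.0403), 1.16 with DESeq2 (adjusted p 0.00514) and 1.35 without the low library L1_2609 (adjusted p 0.0498), and without other single libraries its adjusted p ran between 0.0541 and 0.148. Low and high library names share replicate codes, which join L1_2609 to H1_2609, L2_2609 to H2_2609, L1_2709 to H1_2709, L2_2709 to H2_2709 and L_2909 to H_2909. In that order the low minus high differences in log2 level were 1.24, 1.27, 1.73, 0.85 and 0.93, all in one direction.

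The window before ALD6 is shown beside the kinases' windows above, as the gene with the clearest difference. It holds 1 stress element and 1 Mig1 word, in capitals, besides 2 matches to the carbon source response element (chrXVI:432088-432387, plus strand).
ALD6 upstream window: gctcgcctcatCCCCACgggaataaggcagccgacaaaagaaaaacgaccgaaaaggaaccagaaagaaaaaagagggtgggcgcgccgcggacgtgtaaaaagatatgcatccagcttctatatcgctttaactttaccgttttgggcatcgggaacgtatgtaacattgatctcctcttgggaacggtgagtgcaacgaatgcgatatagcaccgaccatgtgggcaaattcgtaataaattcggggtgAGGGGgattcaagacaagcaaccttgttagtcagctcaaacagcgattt

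PDC6, one step before ALD6, measured 324, 378 and 410 CPM per kilobase in the 3 low libraries and 421 and 601 in the left-out low libraries, against 124, 153, 352, 311 and 178 in high. The high libraries H1_2709 and H2_2709 reached into the low range or near it, and the other 3 high libraries lay well below it. The log2 fold change was 0.73 ± 0.32 (SE), with an adjusted p of 0.279, and it was 0.93 with all 10 libraries (adjusted p 0.115). By shared code the differences were 1.39, 1.46, 0.77, 0.28 and 1.20, again all positive.

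TDH1, the minor glyceraldehyde-3-phosphate dehydrogenase known to appear as cells approach stationary phase, had its higher values in high. It measured 274, 414 and 232 CPM per kilobase in the 3 low libraries and 76.5 and 360 in the left-out low libraries, against 1036, 199, 544, 643 and 778 in high. Of the high libraries, H2_2609 alone fell within the range of the 5 low libraries. The log2 fold change was -1.06 ± 0.44 (SE), with an adjusted p of 0.247 that became 0.0448 at a log2 fold change of -1.29 when H2_2609 was left out. By shared code the differences were -1.92, -1.38, -0.60, -0.64 and -1.74. The GFP cassette ends in the terminator of TDH1, while the gene models are coding sequences. The GFP transcript measured 121, 158 and 201 CPM in the 3 low libraries, 292 and 188 in the left-out ones, and 105, 341, 209, 171 and 69.2 in high, and was highest in H2_2609, the high library lowest in TDH1. Whether the cassette bears on the TDH1 values was not tested.

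**Figure D4:**
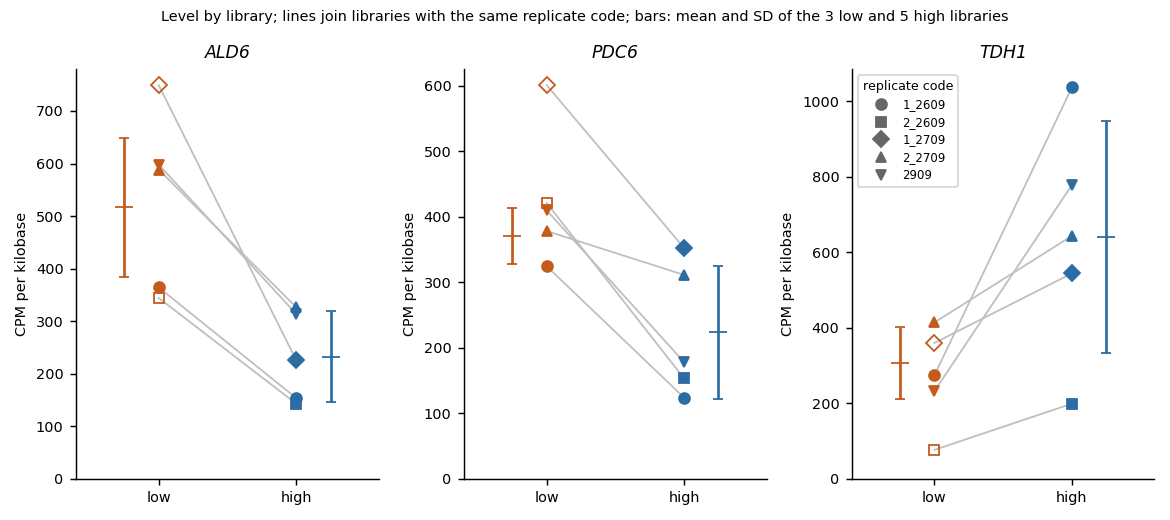
CPM per kilobase of ALD6, PDC6 and TDH1 in each library, low on the left and high on the right. Lines join libraries with the same replicate code, open symbols are the 2 left-out low libraries, and bars give the mean and SD of the 3 low and 5 high libraries. For ALD6 and PDC6 every line runs from a higher low value to a lower high one, and for TDH1 every line runs the other way.

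The 32 remaining genes gave no call in the 8 libraries, in all 10, with DESeq2 or without any single library. ADH2 measured 53.1, 62.0 and 82.5 CPM per kilobase in the 3 low libraries and 69.8 and 154 in the left-out ones, against 94.6, 146, 110, 93.8 and 60.0 in high, a log2 fold change of -0.61 ± 0.27 (SE) with an adjusted p of 0.273. The left-out low library L1_2709 was above all high libraries, so that the groups overlapped from end to end. PCK1, the entry enzyme of gluconeogenesis, varied more than any other of the 35 within high and within the 3 low libraries compared, while over all 5 low libraries TDH1 varied more (SD of the log2 level 0.96, against 0.93 for PCK1). It measured 624.8, 255 and 130 in the 3 low libraries and 585 and 323 in the left-out ones, against 928, 783, 356, 447 and 158 in high. L1_2609 and L2_2609 were the highest low libraries and L_2909 the lowest, and H1_2609 and H2_2609 were the highest high libraries and H_2909 the lowest. PCK1 was lower in low for each of the 5 shared codes, with log2 differences of -0.57, -0.42, -0.14, -0.81 and -0.28, yet across the 8 libraries its log2 fold change was -0.66 ± 0.61 (SE). FBP1, fructose-1,6-bisphosphatase, measured 65.2 ± 17.3 in low and 77.5 ± 14.3 in high (SD, n = 3 and 5). In all, 2 members (PDC6, ALD6) were higher and 6 (FBA1, TPI1, TDH1, GPM1, CDC19, PCK1) lower in low in 5 of 5 codes, which is 8 of 35, while 7.64% of all genes tested were higher and 13.6% lower in every code, so that these counts lay near the background.

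For 25 of the 35 genes the log2 fold change was smaller in size than both the SD of the log2 level in the 3 low libraries and that in high. The SD of the log2 level in high had a median of 0.43 over the 35 genes, against 0.21 over 4373 genes with a mean of at least 30 CPM, and 31 of the 35 lay above that median. In low the medians were 0.31 for the 35 genes and 0.24 for the 4373 over the 3 libraries compared, with 21 of 35 above, and 0.34 and 0.32 over all 5, with 20 of 35 above. The steadiest in high were PGI1 (0.13), ADH3 (0.15) and PFK2 (0.16), and the least steady PCK1 (1.02), HXK2 (0.92) and TDH1 (0.91).

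Part of this spread ran along whole groups of genes. Among the 15 main genes of glycolysis and ethanol formation, L2_2709 was the highest low library in 12 and H2_2709 the highest high library in 12. L2_2609 was the lowest low library in 9, and H2_2609 the lowest high library in 11. The median log2 deviation of the 15 genes from their group mean was 0.52 in L2_2709 and 0.51 in H2_2709, which share a code, and -0.31 in L2_2609 and -0.53 in H2_2609, which share another. TDH2, for example, measured 927 in L2_2709 and 244 in L2_2609, and 1158 in H2_2709 and 308 in H2_2609. PGI1, PFK1 and PFK2 deviated by at most 0.23 in these 4 libraries, and HXK2 was above its group mean in both L2_2609 and H2_2609. Over the 9 glucose-repressed genes the medians were 0.11 in L2_2709 and -0.01 in H2_2709. They were -0.33 in L2_2609 and -0.30 in H2_2609, each of which was the lowest of its fraction in 6 of the 9. The low medians of these 2 libraries were thus shared by both gene groups, but not by every gene. Of the 9, 7 were below their group mean in L2_2609 and 6 in H2_2609. PCK1 (0.83 and 0.80) and FBP1 (0.10 and 0.24) were above it in both, and ADH2 (0.59) in H2_2609. H1_2609 stood highest of the high libraries in 7 of the 9, with a median of 0.39. The labels do not say that libraries sharing a code came from one culture.

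**Figure D5:**
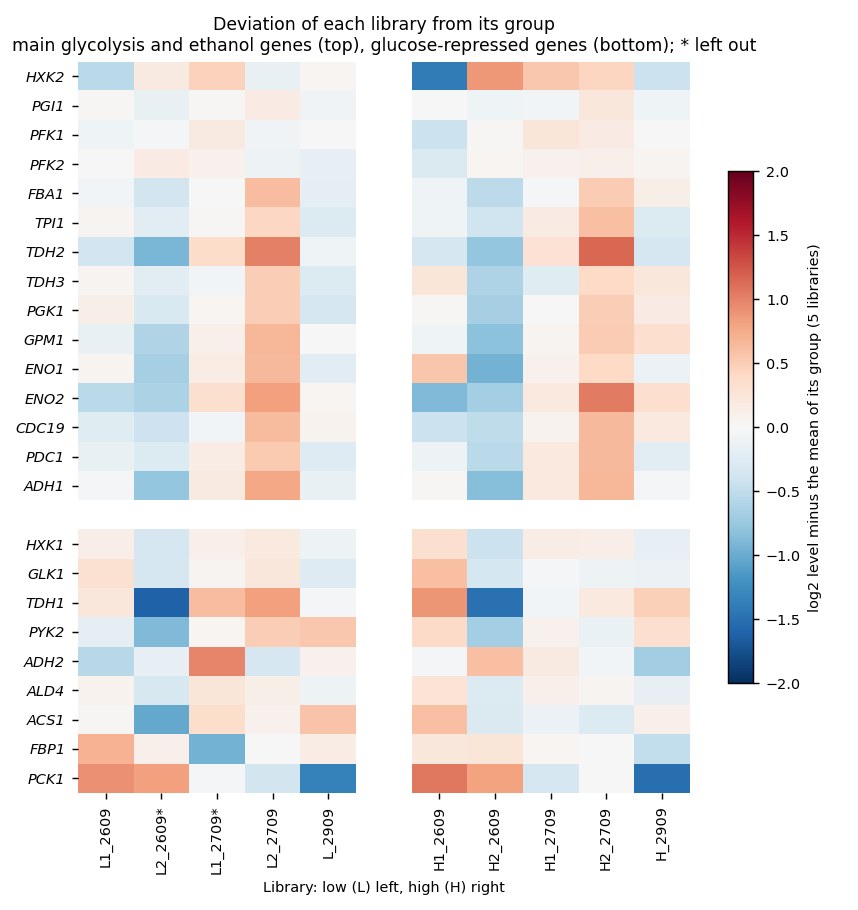
Log2 level minus the mean of its own group of 5 libraries, for the 15 main genes of glycolysis and ethanol formation (top) and the 9 glucose-repressed genes (bottom), with low libraries on the left and high on the right in the same order of codes, and left-out libraries starred. From FBA1 to ADH1 the columns of L2_2709 and H2_2709 are red and those of L2_2609 and H2_2609 blue, with medians over the 15 genes of 0.52, 0.51, -0.31 and -0.53.

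Of 32 neighbouring enzymes of these pathways, among them the other aldehyde and alcohol dehydrogenases, the glyoxylate cycle and glycerol use, 1 was called lower in low and 0 higher, against 4.33% and 0.832% of all genes. That gene was PGM1, the minor phosphoglucomutase, which links glucose 6-phosphate to glycogen, trehalose and cell wall precursors. It measured 32.0, 26.7 and 37.5 CPM per kilobase in the 3 low libraries and 24.1 and 34.97 in the left-out ones, against 51.6, 77.6, 92.3, 79.7 and 76.1 in high. All low libraries lay below all high ones, as for 10.7% of all genes tested in the 8 libraries and 6.15% in all 10. The log2 fold change was -1.23 ± 0.20 (SE), with an adjusted p of 0.0105. Its main paralogue PGM2 measured 1394 in low and 1609 in high on average, with a log2 fold change of -0.21 ± 0.20 (SE) and an adjusted p of 0.682. Of 31 regulators of carbon metabolism, which include the glycolytic activators GCR1 and GCR2, the repressor MIG1, the activators CAT8 and ADR1 of genes for non-fermentable carbon, and the stress factors MSN2 and MSN4, 0 were called, against 5.16% of all genes, and 3 had an unadjusted p under 0.05, against 1143 of the 6492 (edgeR's quasi-likelihood test). Among them GCR2 measured 112, 132 and 130 CPM per kilobase in the 3 low libraries and 124 and 150.05 in the left-out ones, against 97.0, 93.8, 96.9, 90.7 and 93.2 in high. Every low library was above every high one, as for 4.78% of all genes tested in the 8 libraries and 1.8% in all 10. The log2 fold change was 0.41 ± 0.10 (SE), with an adjusted p of 0.0539. The other regulators with an unadjusted p under 0.05 in this test were VID28 (0.0311, adjusted 0.218) and NRG1 (0.0432, adjusted 0.262). GCR2 was singled out after its values were seen.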

How the data were processed

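Poly(A) RNA of sorted low and high fractions was sequenced in pairs, 5 libraries of each, and the groups follow the letters in the library names. The authors filtered the reads, mapped them with HISAT2 (version not given in the sources used here) to the Ensembl yeast genome and deposited read counts per gene. They also deposited FPKM values, scaled by library depth and gene length, which were used here only for alternatives. The counting tool and its strand setting are not given in the sources used here.

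The main comparison took the libraries the study used, 3 low and 5 high, without a covariate, from the deposited counts of 7252 features. The fit used edgeR 4.0.16 in R 4.3.3 with filterByExpr, TMM, the quasi-likelihood test and Benjamini-Hochberg adjustment over the 6492 genes tested, at a threshold of 0.05. The SE of a log2 fold change was its size divided by the square root of F, and its 95% interval used the degrees of freedom of that test. The common biological coefficient of variation was 0.355. The fit was tested on simulated counts. Levels are CPM with TMM factors over all 10 libraries, divided by coding length in kilobases, since all 35 gene models are coding sequences. Shares are counts per kilobase of a gene over the sum of those of the 35 genes in its step, and other genes of a step were not counted. Shares were compared by exact permutation over libraries in scipy 1.17.1. SDs of log2 levels used a pseudocount of 0.1. Libraries within a group were checked for duplicates and none was found, as the smallest chi-square between 2 of them, divided by its degrees of freedom, was 35.6. The study speaks of biological replicates in sorting but does not tie these libraries to separate cultures, so p-values measure the spread between libraries, which may be technical. Reads carried no molecular identifiers, so that counts overstate the molecules sampled.

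All 35 members are named, and of 32 neighbouring enzymes and 31 regulators those with an adjusted p under 0.05. Others of these lists are named as examples or beside a result, and were not called. The members and lists were chosen with earlier results of these data known. Alternatives were all 10 libraries, a replicate block, the ending of the library name as a block, DESeq2 1.42.0, RLE factors, library size alone, scaling without the members, no filter, limma 3.58.1 on log2(FPKM + 1) and log2(FPKM + 0.1), and each of the 8 libraries left out in turn. For shares they were all 10 libraries, the FPKM values and counts not divided by length. Sequences were read by coordinates from the RefSeq R64 assembly.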

Additional observations from a re-analysis of the deposited data

Results flagged for a closer look

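Each level and each tested share was checked, within the 5 low and within the 5 high libraries, for 1 library far from the rest (a gap to its neighbour above 0.710 of the whole range), and 6 of 98 such groups were marked, where chance gives about 5%. In 4 of the 6 the library was H1_2609. GLK1 measured 8216 CPM per kilobase in H1_2609, against 5313 in the next high library. PFK2 measured 235 in H1_2609, against 297 in the next. ACS2 measured 160 in H1_2609, against 283 in the next. The share of ACS1 in its step was 55.9% in H1_2609, against 33.5% in the next high library. PGI1 measured 532 CPM per kilobase in H2_2709, against 452 in the next high library. The share of ENO1 in its step was 80.4% in L1_2609, against 72.8% in the next low library.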

How the results depend on the processing

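Calls among the 35 genes depended on the design. The 8 libraries gave 0 called, and so did RLE factors, library size alone, scaling without the members, no filter and both limma fits. All 10 libraries gave 1 (1 higher, 0 lower), the name ending as a block 1 (1 higher) and DESeq2 1 (1 higher), each time ALD6. Leaving out single libraries gave 0 to 1 in all, 0 to 1 higher (ALD6 without L1_2609) and 0 to 1 lower (TDH1 without H2_2609). Shared codes were checked for pairing by the correlation of deviations from group means over 4373 genes, which was 0.264, 0.094 and 0.288 in the 3 pairs among the 8 libraries and 0.013 to 0.587 in the 5 pairs of all 10. Since not every pair passed 0.1, the libraries were taken to share only a code. A replicate block gave 2 called members (1 higher, ALD6 at 1.01 with adjusted p 0.0232, and 1 lower, TDH1 at -1.44 with adjusted p 0.0478) and 97 genes called in all, against 335. With all 10 libraries and the block it gave 3 (2 higher, ALD6 and PDC6, and 1 lower, TDH1) and 248 in all. Of the 14 shares, 4 had an unadjusted exact permutation p under 0.05 in all 10 libraries, and none an adjusted one. When single libraries were left out 0 had an unadjusted p under 0.05, but none could. With so few libraries an exact permutation cannot give a p under 0.05, so this count says nothing on the shares.

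Log2 fold changes near 0 that turned sign were not called in these fits. With all 10 libraries they were -0.013 for HXK1, 0.13 for HXK2, -0.031 for PYK2, 0.022 for PDC5 and -0.0400 for ADH1. With the replicate block they were -0.021 for HXK1, 0.55 for HXK2, -0.11 for PGK1, 0.13 for PDC5, -0.068 for ADH1, 0.037 for ADH4 and -0.032 for GPD1. With all 10 libraries with the block they were -0.0022 for HXK1, 0.29 for HXK2, -0.069 for PYK2, 0.044 for PDC5 and -0.047 for ADH1. With the name ending as a block they were 0.026 for TDH2 and 0.029 for ADH4. With limma on log2(FPKM + 1) they were 0.085 for HXK2, 0.0097 for TDH2 and 0.0055 for ADH4. With limma on log2(FPKM + 0.1) they were 0.087 for HXK2, 0.0097 for TDH2 and 0.0057 for ADH4. Leaving out single libraries gave -0.036 to 0.14 for HXK1, -0.32 to 0.13 for HXK2, -0.20 to 0.093 for GLK1, -0.0089 to 0.14 for PFK1, -0.36 to 0.0063 for TPI1, -0.56 to 0.36 for TDH2, -0.11 to 0.29 for PGK1, -0.41 to 0.024 for GPM1, -0.40 to 0.0408 for ENO1, -0.18 to 0.58 for ENO2, -0.37 to 0.096 for CDC19, -0.30 to 0.011 for PDC5, -0.21 to 0.32 for ADH1, -0.088 to 0.032 for ADH4, -0.28 to 0.13 for ADH5, -0.35 to 0.026 for ACS1 and -0.043 to 0.13 for GPD1. For shares in percentage points, all 10 libraries gave -0.18 for PFK1, -0.31 for ADH1 and 0.012 for ADH4, and single libraries left out gave -0.74 to 1.51 for PFK1, -0.24 to 1.58 for TDH2, -0.076 to 3.80 for ADH1, -0.23 to 0.066 for ADH4 and -3.94 to 5.02 for ACS1. The cause of these turns was not tested.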
